A study of Mus musculus with 6 samples.

Results

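The 10 glycolysis genes described here are germ line and somatic forms of the same activities, followed in mouse testis cells with and without MAPS. They are the glucose transporter Slc2a3, the aldolases Aldoa and Aldoart1, the glyceraldehyde-3-phosphate dehydrogenases Gapdh and Gapdhs, the enolases Eno1 and Eno4, and the lactate dehydrogenases Ldha, Ldhb and Ldhc. They were taken by name, 10 of the 54532 genes in each library, by a rule that uses no measured value. Earlier results of these data were, however, known when they were chosen. RNA was sequenced from testis cells that STA-PUT sedimentation (separation of testis cells by size under gravity) had purified as pachytene cells from mice at about postnatal day 80. The groups were MAPS EE;MAPS KO (EE_KO below), which the labels describe as MAPS overexpressed on the knockout background, MAPS KO (KO) and WT, with 2 libraries each. EE_KO therefore carries the same knockout as KO. Each group drew on 3 mice of identical genotype and 2 independent experiments, and 1.3 µg of total RNA went into each library. The labels leave unsaid what drives the added MAPS, what EE stands for and whether mice were pooled within a library. The p-values therefore cover the spread between these libraries alone, which may be technical.

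Glycolysis splits glucose into pyruvate, which lactate dehydrogenase converts to and from lactate. Mammalian male germ cells replace several of the common enzymes during and after meiosis with forms made almost only in the testis, some from genes of their own and some from retrogenes, which are intronless copies of an mRNA put back into the genome. Ldhc is switched on in meiotic spermatocytes, and Gapdhs, Eno4 and the aldolase retrogenes are known from spermatids and the sperm tail, where glycolysis serves motility. Sertoli cells, the somatic nurse cells of the tubule, take up glucose and pass lactate to the germ cells.

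Levels are FPKM, fragments scaled for gene length and library size, as the authors deposited them. Changes are differences of log2(FPKM + 1) from 1 limma model over 15365 genes, with a standard error (SE), and a gene was called at a Benjamini-Hochberg adjusted p below 0.05. The added 1 FPKM understates changes of genes near 0. The FPKM correspond to 14178387 to 16565238 reads on genes per library. The steps between low FPKM values imply that they were scaled by library sizes of 13999584 to 17966256, at which 1 read over 2 kb stands for 0.0278 to 0.0357 FPKM. Reads on genes exceeded this size in every WT and EE_KO library, as with 15947286 over 13999584 in WT replicate 1. In KO they fell short of it, at 15886958 under 17966256 and 14178387 under 17373643. What these sizes count was not given in the sources used here. The MAPS gene, 1700102P08Rik, stood at 108.6 and 82.2 FPKM in EE_KO, 7.97 and 10.1 in KO and 157 and 150.2 in WT.

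The cells labelled as pachytene did not have the same markers in the 3 groups. The 9 pachytene markers, such as Piwil1, an Argonaute family protein of spermatocytes, summed to 1545 and 1665 FPKM in EE_KO, 61.8 and 66.8 in KO and 1877 and 1691 in WT, and 9 of 9 fell in KO against WT. Spermatid markers such as Prm1, a protamine, summed to 1493 and 2180 FPKM in EE_KO, 14.0 and 14.5 in KO and 1185 and 2633 in WT, and 8 of 8 fell. Sertoli cell markers such as Sox9 summed to 490.0 and 263 FPKM in EE_KO, 4259 and 4029 in KO and 307 and 307 in WT, with 12 of 12 up in KO against WT. Leydig cell markers such as Insl3 (7 of 7 up) and spermatogonial markers such as Kit (6 of 6 tested up) were also higher in KO. In each of these lists every marker that was tested moved the same way, and none was called between EE_KO and WT. Of all tested genes, 38.0% were called up and 48.1% down in KO against WT, and 0.0456% were called in EE_KO against WT. Tested were markers with a mean of at least 1 FPKM over the 6 libraries. Zbtb16, Sall4 and Lhcgr met this only through KO, and Hist1h1t, Tnp1, Acrv1 and Catsper3 only through EE_KO and WT, which favoured these directions. Of the untested spermatogonial markers, Gfra1 was lower in KO, 0.518 and 0.347 FPKM against 0.926 and 1.23 in WT. The other, Nanos3, was higher, 1.26 and 0.934 against 0.464 and 0.501. The early spermatocyte markers were mixed: of 6 tested, 2 rose and 2 fell in KO against WT. They summed to 194 and 220 FPKM in EE_KO, 137 and 157 in KO and 180 and 189 in WT. Of all the markers, C1qa alone was listed at 0 in any library, which were both WT libraries. In bulk RNA, fewer cells of a type and less RNA per cell cannot be told apart, and the part of cell makeup in the results below was not tested.

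**Figure D1:**
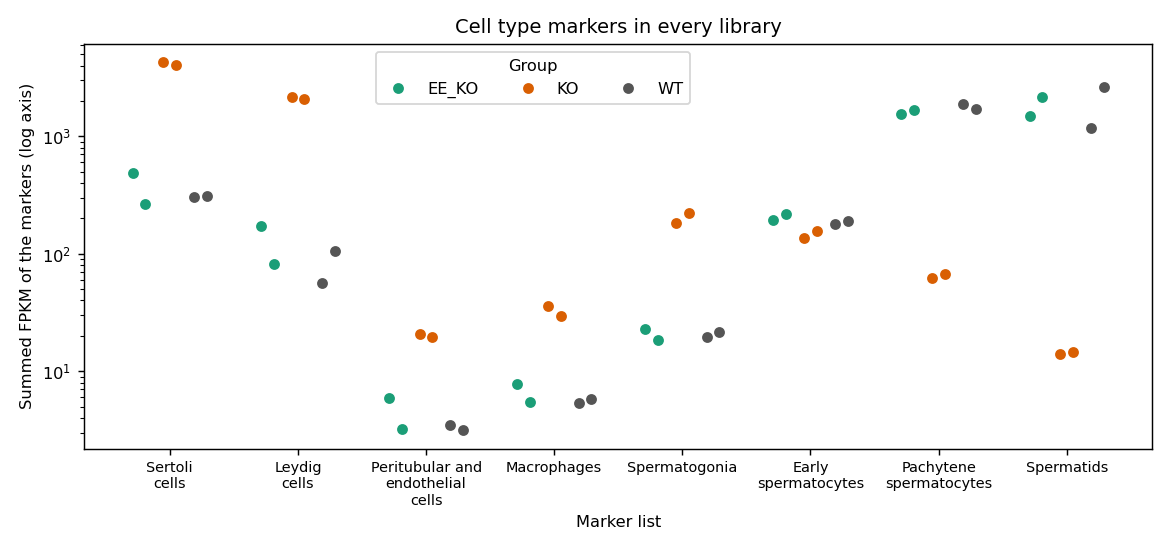
Summed FPKM of 8 marker lists (log axis) in each library of EE_KO, KO and WT, 1 point a library. The KO points stand above the others for Sertoli and Leydig cells, with 4259 and 4029 FPKM for Sertoli cells, and below them for pachytene spermatocytes and spermatids. For early spermatocytes the KO points lie closest to the other groups, at 137 and 157 FPKM.

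In KO against WT, 6 of the 10 isozyme genes fell and 3 rose. The 6 were Slc2a3, Ldha and the germ line forms Ldhc, Gapdhs, Aldoart1 and Eno4. The 3 were Ldhb, Gapdh and Aldoa, and Eno1 was not called. Most genes moved in this comparison: 48.1% of the 15365 tested genes were called down, 38.0% up and 86.2% in all. The members' median log2 change was -3.59, beside -0.29 over all tested genes. The libraries of KO and WT did not overlap for 10 of 10 members, which held for 93.4% of all tested genes. All 10 members were among the tested genes. Gapdh passed the filter, a mean of at least 1 FPKM, only through KO, so its rise was favoured by the filter. Aldoart1, with a mean of 0.0687 FPKM in KO, passed only through EE_KO and WT, so its fall was favoured likewise. The median of all genes depended on the scale, at -0.29 for deposited FPKM, 0.09 for TPM and 0.03 after quantile normalization. Of the members' calls in this comparison, only that of Eno1 turned with it.

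**Figure D2:**
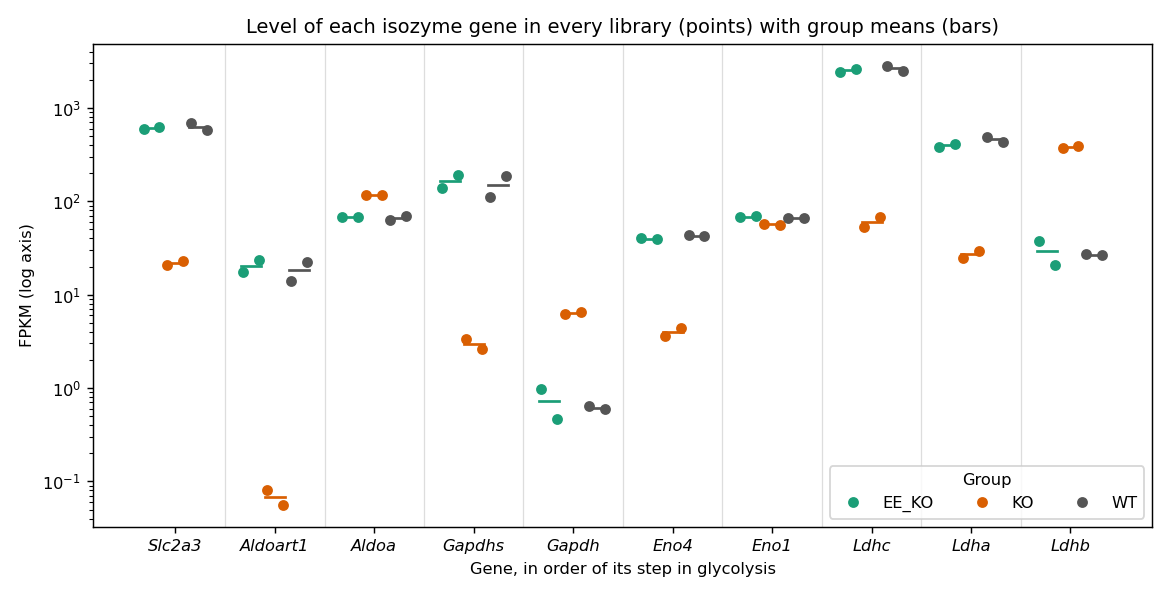
FPKM (log axis) of the 10 isozyme genes in each library of EE_KO, KO and WT, with points for libraries and bars for group means. The KO points lie apart from both other groups for each gene, least so for Eno1, with Ldhb at 369 and 391 FPKM in KO and Ldhc at 52.9 and 68.5.

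Slc2a3 encodes GLUT3, a high-affinity glucose transporter (ENSMUSG00000003153, GRCm38 chr6:122727809-122801640, minus strand). It had 590.3 and 627 FPKM in the EE_KO libraries, 20.6 and 23.1 in the KO libraries and 691 and 574 in the WT libraries. Both KO libraries were far below all the others, while EE_KO and WT overlapped. The KO mean, 21.9 ± 1.78 FPKM, was 3.46% of the WT mean, 632 ± 82.8 (SD, n = 2 each), a log2 change of -4.79 (SE 0.13, adjusted p = 6.55e-08). Of all tested genes, 336 had a lower change. Slc2a1, which encodes GLUT1, the common transporter of many somatic cells, did the opposite, with 13.0 ± 1.19 FPKM in KO and 0.880 ± 0.0345 in WT (2.90, SE 0.23, adjusted p = 8.08e-06). Slc2a3 made up 59.8 and 65.5% of the sum of the pair in KO and 99.9 and 99.8% in WT.

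Aldolase cleaves fructose-1,6-bisphosphate. Aldoart1 is a testis retrogene of Aldoa on another chromosome (ENSMUSG00000059343, GRCm38 chr4:72850583-72852634, minus strand), and Aldoart2 is another, on chromosome 12. The coding sequences of Aldoa and Aldoart1, both 1092 bases, were identical at 94.2% of positions, with a longest identical run of 86 bases, and those of Aldoa and Aldoart2 at 91.7%. The first 90 coding bases (GENCODE M21, 5′ to 3′) are shown as a sample of where reads of parent and copy differ, with capitals at bases that differ from Aldoa, 8 in Aldoart1 and 6 in Aldoart2:
Aldoa: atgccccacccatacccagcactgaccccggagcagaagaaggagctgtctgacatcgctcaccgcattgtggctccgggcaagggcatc
Aldoart1: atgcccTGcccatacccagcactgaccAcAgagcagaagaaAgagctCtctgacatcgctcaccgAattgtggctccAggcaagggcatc
Aldoart2: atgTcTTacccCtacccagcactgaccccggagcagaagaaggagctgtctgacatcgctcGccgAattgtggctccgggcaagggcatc

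Aldoart1 had 17.4 and 23.3 FPKM in EE_KO, 0.0814 and 0.0561 in KO and 13.9 and 22.6 in WT. In reads this was 524 and 715 in EE_KO, 3 and 2 in KO and 400 and 701 in WT, so the gene was close to undetected in both KO libraries. The fitted change of -4.13 (SE 0.23, adjusted p = 1.34e-06) rests on the added 1 FPKM and is no measure of the full size of the fall: it was -6.73 with 0.1 FPKM added and -7.77 with voom on recovered reads. Aldoart2, the other retrogene, moved alike, with 0.697 ± 0.201 FPKM in KO and 66.8 ± 22.4 in WT (-5.29, SE 0.22, adjusted p = 3.20e-07). Both retrogenes passed the filter only through EE_KO and WT, where they are high.

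Aldoa, the parent gene and main aldolase of muscle and most tissues (ENSMUSG00000030695, chr7:126795234-126800751, minus strand), had 67.4 and 68.2 FPKM in EE_KO, 117.0 and 117.2 in KO and 63.0 and 69.6 in WT. The KO libraries were the 2 highest. The rise was 1.77-fold, the smallest of the 3 rises (0.81, SE 0.10, adjusted p = 9.64e-05), and on the log2 scale it was 1.26 with TPM and 1.62 after quantile normalization. A second Ensembl gene that also carries the symbol Aldoa lies just upstream (ENSMUSG00000114515, chr7:126800790-126809108, minus strand), and it went the other way. It had 38.3 and 41.0 FPKM in EE_KO, 1.39 and 3.24 in KO and 39.6 and 36.6 in WT. Its KO mean was 6.08% of WT (-3.62, SE 0.24, adjusted p = 2.92e-06), in a fit with repeated symbols kept that was added after the data had been seen. Summed over Aldoa and both retrogenes, aldolase RNA in KO was 77.9% of WT by deposited FPKM, which divide by all exon bases of a gene, and 106% by FPKM per principal mRNA length, so its direction depended on the length used.

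Glyceraldehyde-3-phosphate dehydrogenase carries out the oxidation step. Gapdhs is the form of sperm (ENSMUSG00000061099, chr7:30729775-30743681, minus strand), and its 1314 coding bases exceed the 999 of Gapdh (ENSMUSG00000057666, chr6:125161715-125166467, minus strand), with 72.3% identity over the aligned part. Gapdhs had 139 and 190.1 FPKM in EE_KO, 3.32 and 2.65 in KO and 112 and 189 in WT. The WT libraries differed by more than they do for most members, yet both were far above both from KO. The KO mean, 2.98 ± 0.476 FPKM, was 1.98% of the WT mean, 150.3 ± 54.4 (-5.20, SE 0.25, adjusted p = 6.40e-07). Of its exon bases, 162, or 10.1%, also lie in the antisense gene Tmem147os, which averaged 3.03, 2.58 and 3.86 FPKM in EE_KO, KO and WT. Whether the counting used strand was not given in the sources used here, so reads of the 2 genes cannot be told apart there.

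Gapdh, the common form, was low throughout, with 0.975 and 0.469 FPKM in EE_KO, 6.26 and 6.56 in KO and 0.639 and 0.591 in WT. These values rest on 59 and 29 reads in EE_KO, 465 and 471 in KO and 37 and 37 in WT. The KO libraries were the 2 highest and 10.4-fold above WT on the mean FPKM (2.20, SE 0.18, adjusted p = 8.39e-06; 3.36 with voom on recovered reads). Of the 50-base words in the principal Gapdh mRNA, 90.4% also occur in other annotated genes, 222 in all. One of these, the processed pseudogene Gm7336, which shares 90.4% of the words, had 1.04, 5.58 and 0.529 FPKM on average in EE_KO, KO and WT. How the authors' counting divided such reads was not given in the sources used here, so the level of Gapdh is uncertain. The sum of the 2 genes in KO was 6.22% of WT by deposited FPKM and 13.6% per principal mRNA length.

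Enolase makes phosphoenolpyruvate. Eno4 is a form needed for the sperm tail in mice (ENSMUSG00000048029, chr19:58943425-58971421, plus strand), and its coding sequence was 63.0% identical to that of Eno1 over the aligned part, the lowest of the pairs compared here. Eno4 had 40.0 and 39.2 FPKM in EE_KO, 3.57 and 4.37 in KO and 43.4 and 42.2 in WT. Libraries of 1 group lay close together, and those of KO were far below the rest. The KO mean was 9.27% of WT, 3.97 ± 0.561 against 42.8 ± 0.870 FPKM (-3.14, SE 0.12, adjusted p = 1.91e-07). Hspa12a, on the opposite strand, covers 6.46% of its exon bases and averaged 5.60, 1.99 and 6.04 FPKM in EE_KO, KO and WT.

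Eno1, the common enolase (ENSMUSG00000063524, chr4:150236721-150248879, plus strand), changed least of the 10, with 67.1 and 69.1 FPKM in EE_KO, 57.3 and 55.9 in KO and 66.7 and 66.0 in WT. The KO libraries were the 2 lowest, but the difference from WT of -0.22 (SE 0.09, 95% interval -0.44 to -0.0041, adjusted p = 0.0541) was not called. Its direction depended on the scale: it was 0.21 (adjusted p = 0.0659) with TPM and 0.47 (adjusted p = 0.00138) after quantile normalization. Over the settings tried, its adjusted p crossed 0.05 on the falling side in 4. Of its 50-base mRNA words, 72.2% occur in other genes, mainly Eno1b and the pseudogene Gm4735, so its level too is uncertain.

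Lactate dehydrogenase interconverts pyruvate and lactate. Ldha is the form of muscle and other glycolytic tissues, Ldhb that of heart and other oxidative tissues, and Ldhc that of male germ cells. Ldhc (ENSMUSG00000030851, chr7:46861203-46878142, plus strand) lies next to Ldha (ENSMUSG00000063229, chr7:46841475-46855627, plus strand), whereas Ldhb is on another chromosome (ENSMUSG00000030246, chr6:142490249-142507957, minus strand). Their coding sequences were 73.7% identical for Ldha and Ldhc, 73.0% for Ldha and Ldhb and 65.4% for Ldhb and Ldhc. The same stretch of each coding sequence, coding bases 61 to 150 of Ldhc and Ldha and 64 to 153 of Ldhb, is shown as a sample of how readily reads of the 3 can be told apart. Capitals mark bases that differ from Ldhc, 20 in Ldha and 23 in Ldhb:
Ldhc: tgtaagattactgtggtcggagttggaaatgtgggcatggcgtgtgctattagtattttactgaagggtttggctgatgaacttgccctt
Ldha: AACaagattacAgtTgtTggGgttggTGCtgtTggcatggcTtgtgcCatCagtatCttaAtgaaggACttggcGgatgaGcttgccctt
Ldhb: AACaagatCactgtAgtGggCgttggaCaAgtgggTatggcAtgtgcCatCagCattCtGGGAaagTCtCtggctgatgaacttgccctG

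Ldhc had 2424 and 2618 FPKM in EE_KO, 52.9 and 68.5 in KO and 2816 and 2499.7 in WT. By level it ranked 724 and 443 among all genes in the KO libraries, and 1 and 2 in the WT libraries. The KO mean, 60.7 ± 11.0 FPKM, was 2.28% of the WT mean, 2658 ± 224 (-5.44, SE 0.16, adjusted p = 7.32e-08). Of all tested genes, 79 had a lower change. No 50-base word of its mRNA occurs in another gene.

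Ldha had 383 and 411 FPKM in EE_KO, 24.8 and 29.4 in KO and 489.9 and 432 in WT. Although Ldha is a common form, it fell with the germ line genes, to 5.88% of WT (-4.04, SE 0.13, adjusted p = 9.09e-08). Of the somatic forms, Ldhb, Aldoa and Gapdh rose, Ldha fell and Eno1 was not called.

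Ldhb had 37.8 and 20.7 FPKM in EE_KO, 369 and 391 in KO and 27.1 and 26.5 in WT. The KO libraries were far above the other 4, whose groups overlapped. The KO mean, 380.0 ± 15.6 FPKM, was 14.2-fold the WT mean, 26.8 ± 0.396 (3.78, SE 0.24, adjusted p = 2.20e-06), and 138 of the tested genes had a higher change. The pseudogene Gm5514, which shares 27.0% of the 50-base words of Ldhb, averaged 0.221 FPKM in EE_KO, 28.2 in KO and 0.108 in WT.

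The make-up of lactate dehydrogenase RNA differed between KO and WT. Summed over the 3 genes it came to 2844 and 3050 FPKM in EE_KO, 447 and 489 in KO and 3333 and 2958 in WT, so KO held 14.9% of WT. Ldhb was 1.33 and 0.680% of the sum in EE_KO, 82.6 and 80.0% in KO and 0.812 and 0.896% in WT. Ldhc was 85.2 and 85.9% of it in EE_KO, 11.8 and 14.0% in KO and 84.5 and 84.5% in WT. The sum of the Sertoli cell markers was 13.5-fold higher in KO than in WT, beside the 14.2-fold of Ldhb. Those of other cell types were higher too, 26.2-fold for Leydig cells, 9.94-fold for spermatogonia, 6.07-fold for peritubular and endothelial cells and 5.83-fold for macrophages. The peritubular and endothelial sum was only 3.46 and 3.15 FPKM in WT, with 2 of 6 markers tested. In KO, Acta2 gave 12.8 and 13.1 of its 20.6 and 19.6 FPKM, while Cnn1 was lower in KO than in WT. The macrophage sum was 5.40 and 5.75 FPKM in WT, with 4 of 6 markers tested. In KO, Mrc1 gave 21.3 and 18.1 of its 35.6 and 29.4 FPKM, while Adgre1 overlapped between KO and WT. Which cells carry the Ldhb RNA was not tested.

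The promoters of the 3 genes are shown because 2 neighbours fell and the third member rose. Each window is the 250 bases before a RefSeq start site (GRCm38.p6), on the gene's strand. The table held 8 of the 10 members, 5 of them with several start sites, of which the one nearest to the annotated gene start was taken. Of 4 motifs searched on both strands, 3 were found, and their matches are in capitals: a GC box (GGGCGG), the core of a cyclic AMP response element (CRE core, read as TGACG) and a MYB core (AACNG). The other motif, a TATA box written TATAAA, had no match in them. Overlapping matches run together.
Ldhc, chr7:46861013-46861262, plus strand: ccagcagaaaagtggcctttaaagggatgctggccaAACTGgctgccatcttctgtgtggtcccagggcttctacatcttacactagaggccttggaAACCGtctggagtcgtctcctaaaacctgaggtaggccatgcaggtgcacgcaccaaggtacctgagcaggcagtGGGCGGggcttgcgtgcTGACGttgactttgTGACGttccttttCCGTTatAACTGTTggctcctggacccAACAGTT
Ldha, chr7:46845554-46845803, plus strand: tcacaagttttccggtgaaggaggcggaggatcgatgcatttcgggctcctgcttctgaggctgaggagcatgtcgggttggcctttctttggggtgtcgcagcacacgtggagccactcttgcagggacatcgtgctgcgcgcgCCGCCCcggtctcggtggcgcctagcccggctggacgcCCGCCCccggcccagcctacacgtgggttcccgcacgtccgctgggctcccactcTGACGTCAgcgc
Ldhb, chr6:142507958-142508207, minus strand: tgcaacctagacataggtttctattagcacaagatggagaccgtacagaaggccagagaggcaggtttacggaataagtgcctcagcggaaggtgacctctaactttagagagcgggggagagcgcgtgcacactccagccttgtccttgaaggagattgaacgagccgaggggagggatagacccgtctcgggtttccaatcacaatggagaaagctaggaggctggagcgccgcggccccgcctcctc

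The Ldhc window held 1 GC box, 2 CRE cores, starting 61 and 47 bases before the start site, and 7 MYB cores. Among the 7, the pairs that start 27 and 25 bases and 7 and 5 bases before the start site overlap on opposite strands. The Ldha window held 2 GC boxes and 2 CRE cores that overlap on opposite strands, and no MYB core. The Ldhb window held none of the 4 motifs. Of 32851 promoters of the same length, 32.7% held a GC box, 17.8% a CRE core and 74.2% a MYB core. Among the other members, Eno4 had 4 MYB cores, Gapdh 2 and Aldoa 1, while the windows of Gapdhs and Eno1 had no match. At other start sites of the same genes the counts differed: a second Ldhc window, 224 bases downstream, held 3 MYB cores alone, a second Ldha window, 1278 bases downstream, 1 CRE core and 2 MYB cores, and those of Eno1 and Aldoa 2 or 3 GC boxes and 1 MYB core each. A match is a string of letters and says nothing about binding.

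Within each library, the germ line form was also set against its somatic partner, a ratio that does not depend on how libraries are scaled, although its level depends on the gene lengths used. Gapdhs made up 99.3 and 99.8% of Gapdhs plus Gapdh in EE_KO, 34.6 and 28.7% in KO and 99.4 and 99.7% in WT. The log2 ratio, with 0.1 FPKM added to each gene, was -1.09 ± 0.27 in KO against 7.67 ± 0.60 in WT (SD, n = 2 each), a difference of -8.75. Both the share and this ratio rest on the level of Gapdh, which is uncertain. It had 59 and 29 reads in EE_KO and 37 and 37 in WT, and 90.4% of its 50-base words occur in other genes. Aldoart1 made up 20.5 and 25.4% of Aldoart1 plus Aldoa in EE_KO, 0.0695 and 0.0479% in KO and 18.1 and 24.5% in WT.

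Eno4 made up 37.4 and 36.2% of Eno4 plus Eno1 in EE_KO, 5.87 and 7.24% in KO and 39.5 and 39.0% in WT, a log2 ratio of -3.81 ± 0.22 in KO against -0.63 ± 0.02 in WT. Ldhc made up 86.4 and 86.4% of Ldhc plus Ldha in EE_KO, 68.1 and 69.9% in KO and 85.2 and 85.3% in WT. Its log2 ratio to Ldha moved least of the 4 pairs, at 1.15 ± 0.09 in KO against 2.53 ± 0.01 in WT, and both genes of this pair fell. The KO and WT libraries did not overlap for any of the 4 ratios. Per principal mRNA length the shares were lower, on average 18.0, 2.58 and 19.6% for Eno4 in EE_KO, KO and WT, 13.5, 0.0305 and 12.4% for Aldoart1, 98.7, 14.4 and 98.8% for Gapdhs and 79.6, 57.8 and 78.0% for Ldhc. With 2 libraries against 2 the exact two-sided permutation test cannot go below p = 0.333, which each of the 4 reached (0.4 after Benjamini-Hochberg adjustment over 12 ratio tests).

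**Figure D3:**
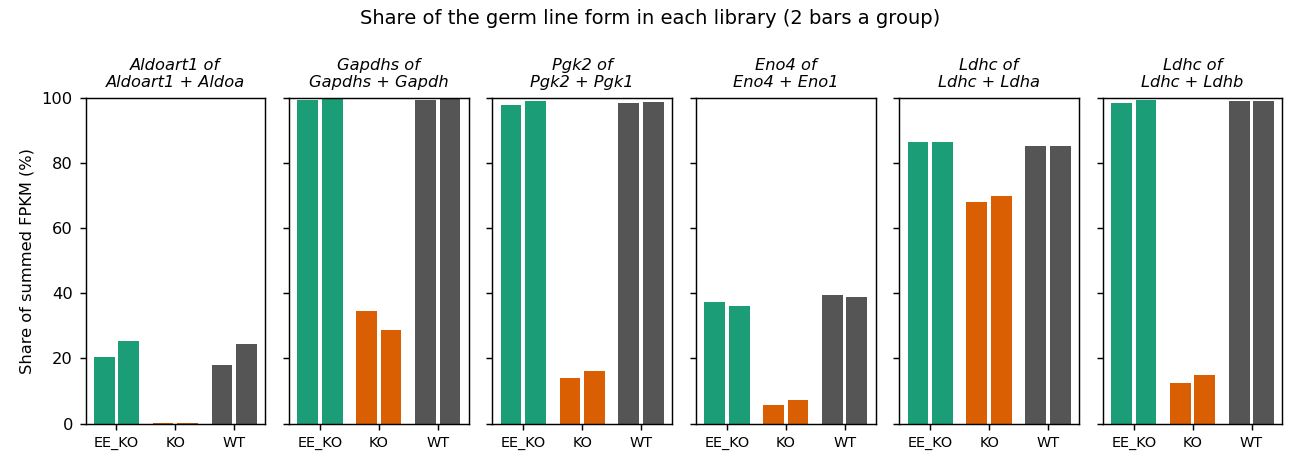
Share of the germ line form in the summed deposited FPKM of a pair (percent), with 1 bar for each library of EE_KO, KO and WT. The share is lower in both KO libraries for every pair, from 68.1 and 69.9% for Ldhc beside Ldha down to 0.0695 and 0.0479% for Aldoart1 beside Aldoa, and close between EE_KO and WT.

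In EE_KO against WT, none of the 10 genes was called. In limma 7 of the 15365 genes were called in all, 0.0456% (0.0260% up, 0.0195% down). An unadjusted p below 0.05 was reached by 1150. The members' changes ran from -0.21 for Ldha (95% interval -0.51 to 0.08) to 0.17 for Aldoart1 (-0.37 to 0.71). The intervals were narrowest for Eno1 (0.04, -0.18 to 0.26) and Aldoa (0.03, -0.20 to 0.27). For Gapdhs the interval was wide, -0.43 to 0.75, as it was for Ldhb, -0.48 to 0.61, and differences of that size were not detectable with these libraries. The libraries of 3 members did not overlap, Ldha and Eno4 lower and Eno1 higher in EE_KO, which held for 36.5% of all tested genes.

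The ratio of Ldhc to Ldha was 6.34 and 6.38 in EE_KO and 5.75 and 5.79 in WT. Its log2 difference of 0.14 was larger than the spread within either group (SD 0.01 each), with the smallest exact permutation p the design allows, 0.333. Eno4 over Eno1 was -0.78 ± 0.05 in EE_KO against -0.63 ± 0.02 in WT on the log2 scale (exact permutation p = 0.333). The other 2 ratios overlapped, with exact permutation p = 1.0 for Gapdhs over Gapdh and 0.667 for Aldoart1 over Aldoa.

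In EE_KO against KO, 7 members were higher and 3 lower, beside 47.8% of tested genes up, 37.9% down and 85.6% in all. The libraries did not overlap for 10 of 10 members, as for 93.6% of tested genes. This comparison shares the KO libraries with that of KO against WT, so the values are not a separate view of the same change. Ldhc was higher in EE_KO by 5.36 (SE 0.16), Gapdhs by 5.36 (SE 0.25), Slc2a3 by 4.74 (SE 0.13), Aldoart1 by 4.31 (SE 0.23), Ldha by 3.83 (SE 0.13) and Eno4 by 3.03 (SE 0.12) on the log2 scale. Ldhb fell by 3.71 (SE 0.24), Gapdh by 2.12 (SE 0.18) and Aldoa by 0.78 (SE 0.10). Eno1 was higher by 0.26 (SE 0.09, adjusted p = 0.0305), a call that turned with the scale: it was -0.14 with TPM (adjusted p = 0.197) and -0.36 after quantile normalization (adjusted p = 0.00524). The adjusted p of the other 9 lay between 7.85e-08 for Slc2a3 and 1.30e-04 for Aldoa.

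**Figure D4:**
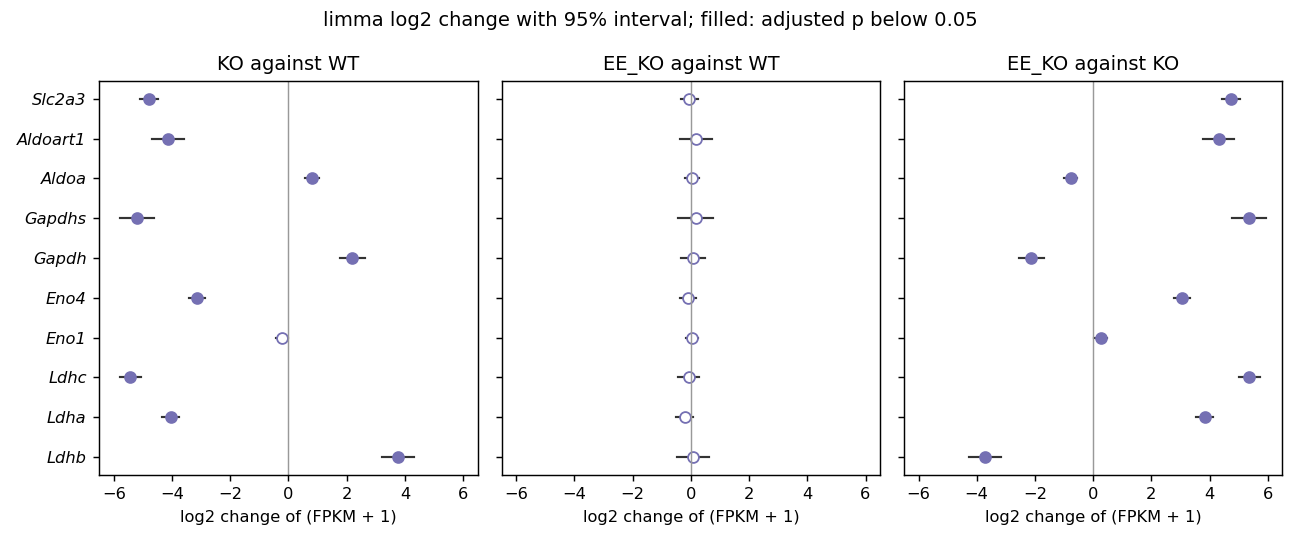
Log2 change of FPKM + 1 with its 95% interval for the 10 isozyme genes in 3 panels (KO against WT at left, EE_KO against WT, EE_KO against KO at right), filled where the adjusted p is below 0.05. KO against WT runs from -5.44 for Ldhc to 3.78 for Ldhb, and no point is filled in EE_KO against WT.

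The order of the members by level differed between groups. In WT it was Ldhc, Slc2a3, Ldha, Gapdhs, Eno1, Aldoa, Eno4, Ldhb, Aldoart1 and Gapdh, with Eno1 and Aldoa overlapping. EE_KO had the same order, with overlaps of Eno1 and Aldoa and of Ldhb and Aldoart1. In KO it was Ldhb, Aldoa, Ldhc, Eno1, Ldha, Slc2a3, Gapdh, Eno4, Gapdhs and Aldoart1, with Ldhc and Eno1 overlapping. The deposited values divide by all exon bases of a gene, which for Gapdh are 3.25 times its principal mRNA, for Eno1 2.65 times, for Aldoa 1.93 times, for Ldha 1.87 times and for Ldhc 1.15 times. Per principal mRNA, Ldha had 864 FPKM in WT and Ldhc 3065, so the levels of different genes, unlike the changes of 1 gene, depend on that choice.

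The rest of the pathway was read from 5 lists with 60 genes, of which 45 passed the filter (6 of them only through KO, where they are high) and 14 did not, and 1, Mpc1l, was not analysed here. Aldoart2 and Slc16a7 passed only through EE_KO and WT, where they are high. In KO against WT, 20 of the 45 rose, 21 fell and 4 were not called, beside 38.0% up and 48.1% down over all tested genes, and the median change was 0.07. None was called in EE_KO against WT, and in EE_KO against KO 21 were higher and 20 lower. At several steps, alternative genes for the same activity went opposite ways.

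Among 18 further enzymes, 8 rose and 9 fell in KO against WT. Pgk2, the autosomal retrogene that supplies phosphoglycerate kinase in meiotic cells, had 200.3 ± 31.0 FPKM in EE_KO, 5.81 ± 0.950 in KO and 211 ± 4.09 in WT (KO against WT -4.97, SE 0.14, adjusted p = 7.47e-08). Pgk1, its X-linked parent, had 3.05 ± 1.49 FPKM in EE_KO, 32.6 ± 1.11 in KO and 2.87 ± 0.223 in WT (3.12, SE 0.23, adjusted p = 5.54e-06). The share of Pgk2 in the pair was 13.9 and 16.3% in KO and 98.6 and 98.7% in WT, although 68.0% of the 50-base words of Pgk1 occur in other genes.

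Pgam2, the muscle and testis form of phosphoglycerate mutase, stood at 572 ± 13.1 FPKM in EE_KO, 15.05 ± 4.69 in KO and 804 ± 27.5 in WT (KO against WT -5.68, SE 0.18, adjusted p = 1.09e-07). Hk1, the hexokinase with a spermatogenic form, stood at 65.9 ± 7.58 FPKM in EE_KO, 2.84 ± 0.0909 in KO and 80.2 ± 12.8 in WT (-4.39, SE 0.14, adjusted p = 1.07e-07). Both fell, as the germ line members did. The rises with the smallest p were those of Pfkl, the liver form of phosphofructokinase, with 28.7 ± 1.64 FPKM in KO and 1.98 ± 0.0654 in WT (3.32), of Ldhd, which acts on D-lactate and passed the filter only through KO, with 13.1 ± 1.81 and 0.700 ± 0.148 FPKM in KO and WT (3.05), and of Pkm, pyruvate kinase, with 129.6 ± 3.67 and 24.5 ± 4.81 FPKM in KO and WT (2.37). Gpi1, the isomerase, was the 1 not called (0.24, SE 0.19, adjusted p = 0.265).

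**Figure D5:**
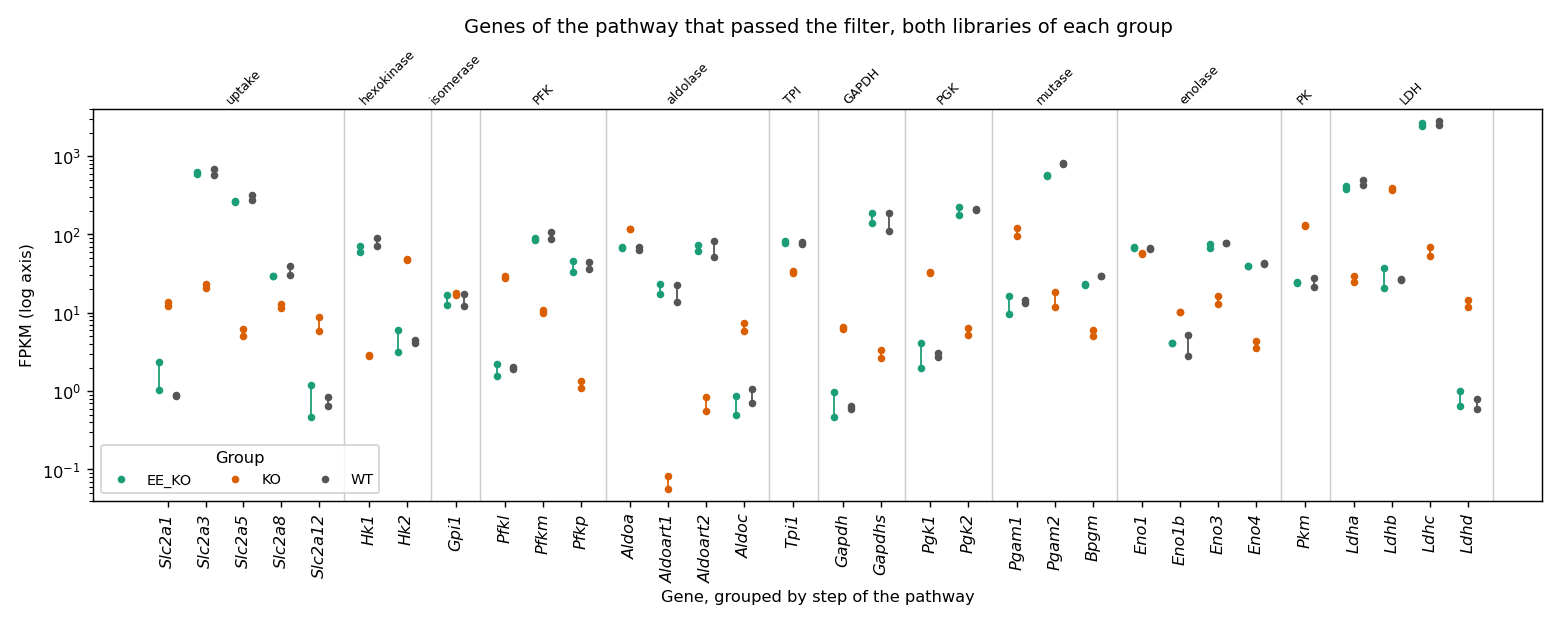
FPKM (log axis) of the uptake and glycolysis genes that passed the filter, grouped by step, with both libraries of EE_KO, KO and WT as joined points. At most steps with several genes, KO stands below WT for one gene and above it for another, as for Pgk2 (5.81 and 211 FPKM) and Pgk1 (32.6 and 2.87 FPKM).

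Of 4 further sugar transporters, 2 rose and 2 fell. Slc2a5, which carries fructose, had 263 ± 1.33 FPKM in EE_KO, 5.66 ± 0.830 in KO and 299.8 ± 32.5 in WT (KO against WT -5.50, SE 0.13, adjusted p = 5.38e-08). Slc2a8 fell by 1.44 (SE 0.14) and Slc2a12, which passed the filter only through KO, rose by 2.22 (SE 0.25) on the log2 scale.

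The genes whose profile over the 6 libraries was nearest to that of Ldhc, by Euclidean distance of centred log2(FPKM + 1) among 12171 protein-coding genes, were 1700020D05Rik (0.0899), Zmynd10 (0.0910), a gene of dynein assembly in cilia, Mroh4, Mroh2b and 1700123L14Rik. Those nearest to Ldha were Tcam1 (0.117), a testis cell adhesion gene, AI429214, Ptpdc1, Cep128 and Morn2. For Ldhb, looked up after its values had been seen, they were Gata1 (0.119), which is among the Sertoli cell markers used above, 4933402E13Rik, Fxyd6, Tspo and AU015836. Gata1, 4933402E13Rik and AU015836 are on the X chromosome, Ldhb is not. Gata1 averaged 2.49 FPKM in EE_KO, 41.0 in KO and 2.15 in WT. KO differs from both other groups at most genes, and such distances describe these libraries only.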

How the data were processed

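The values are FPKM per gene, per the file headers, as the authors deposited them for 6 libraries of 54532 Ensembl genes. The submitters' processing notes name GRCm38 and mm10. Which aligner, counting tool and annotation were used, and whether strand was kept, was not given in the sources used here. Symbols, coordinates and exon lengths were looked up in GENCODE M21 for 54495 genes; 37 had no entry. Multiplied by exon length, 96.8 to 97.0% of the values above 0 in a library came out as whole reads (tolerance 0.01).

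Genes with a mean of at least 1 FPKM were tested, leaving out 533 short RNA genes and, where a symbol occurs more than once, its 9 weaker entries. A single limma 3.58.1 model (R 4.3.3) with a mean-variance trend and no replicate block was fitted to log2(FPKM + 1) over all 6 libraries, with Benjamini-Hochberg adjustment over 15365 genes. The fit was tested beforehand on simulated data in which few genes changed. That test does not cover comparisons such as KO against WT, where most genes were called. Ratios within a library used 0.1 FPKM added to each gene and an exact permutation test. Tables, alignments and figures used Python 3.11.15, pandas 2.3.3, numpy 2.4.6, scipy 1.17.1, Biopython 1.88 and matplotlib 3.10.9. Promoters came from RefSeq (GRCm38.p6) and coding sequences from GENCODE M21. A word of mRNA is any 50 consecutive bases of a gene's principal transcript.

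Named beyond the members were partners with a germ line or somatic form, up to 3 called genes with the smallest p in each direction of each pathway list, and the 5 genes nearest to Ldhc and to Ldha. The genes nearest to Ldhb, the uncalled genes named singly and the further sugar transporters were named after their values were seen. The members, lists, tests and alternatives were chosen with earlier results of these data known. The alternatives were other pseudocounts, filters and scales, a replicate block, fits of only the groups compared, voom on recovered reads, short RNAs kept, a fit without the trend, and leaving out libraries singly. Chosen after seeing the data were repeated symbols kept and levels, sums and shares per principal mRNA.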

Additional observations from a re-analysis of the deposited data

How the results depend on the processing

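Of the members, 9 were called in KO against WT (8 to 10 over the alternatives), 0 in EE_KO against WT in each alternative, and 10 in EE_KO against KO (9 to 10). With a minimum of 5 FPKM, Gapdh had no value. For KO against WT and EE_KO against KO, 7704 and 7655 genes were called at a minimum of 5 FPKM, where 8767 were tested, against 13238 and 13153. With voom on recovered reads 13221 were called in KO against WT. The 7 genes of EE_KO against WT became 4 with 0.5 FPKM added, 0 without a filter, 2 at 5 FPKM, 2 with TPM, 0 with only these groups fitted, and 0 to 19 with a library left out. The labels do not say whether a shared replicate number pairs libraries. Over the tested genes, the differences between replicates correlated at 0.09 (KO and EE_KO), -0.03 (KO and WT) and 0.05 (EE_KO and WT). With 1 such difference per group, these values cannot settle whether the libraries are paired. With the replicate block, 13222, 2 and 13103 genes were called in the 3 comparisons, and of the members only Eno1 in EE_KO against KO was lost (0.26, adjusted p = 0.0613).

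Eno1 reversed with TPM and quantile normalization, to 0.21 and 0.47 in KO against WT and -0.14 and -0.36 in EE_KO against KO. In EE_KO against KO it was also lost without KO replicate 2, EE_KO replicate 1 or EE_KO replicate 2 (0.24 to 0.28), and without the trend (adjusted p = 0.0702). In EE_KO against WT, leaving out 1 library moved uncalled changes across 0: Ldhb from -0.36 to 0.48, Ldhc from -0.16 to 0.011, Gapdh from -0.14 to 0.29, Gapdhs from -0.22 to 0.54, Aldoa from -0.036 to 0.11, Aldoart1 from -0.16 to 0.50, and Slc2a3 from -0.18 to 0.085 (0.071 with quantile normalization). The log2 ratio of Gapdhs to Gapdh then ran from -0.65 to 0.72 and that of Aldoart1 to Aldoa from -0.13 to 0.42. The cause was not tested. With 2 libraries a group, differences between EE_KO and WT within these ranges were not detectable.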

Other observations

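Genes that carry lactate and pyruvate and those of pyruvate dehydrogenase moved in both directions, as did all tested genes, of which 38.0% rose and 48.1% fell in KO against WT. Of 7 carriers tested, 2 rose and 4 fell. Slc16a1, the lactate carrier MCT1 of many somatic cells, averaged 6.68 ± 1.04 FPKM in EE_KO, 44.3 ± 3.89 in KO and 5.05 ± 1.17 in WT (KO against WT 2.91, SE 0.17, adjusted p = 1.65e-06), and Emb, a chaperone of such carriers, rose by 2.78 (SE 0.15). Slc16a7, the carrier MCT2, averaged 22.1 ± 2.12 FPKM in EE_KO, 0.310 ± 0.0332 in KO and 22.1 ± 2.72 in WT (-4.13, SE 0.14, adjusted p = 1.35e-07). It passed the filter only through EE_KO and WT. Mpc2, a subunit of the mitochondrial pyruvate carrier, fell by 2.47 (SE 0.12), and Bsg, another carrier chaperone, by 0.83 (SE 0.10).

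Pdha2, the autosomal testis form of the E1 alpha subunit of pyruvate dehydrogenase, averaged 85.6 ± 3.72 FPKM in EE_KO, 6.88 ± 0.622 in KO and 96.5 ± 6.07 in WT (KO against WT -3.63, SE 0.11, adjusted p = 8.41e-08). Its X-linked parent Pdha1, which passed the filter only through KO, averaged 0.380 ± 0.0315 FPKM in EE_KO, 4.98 ± 0.300 in KO and 0.378 ± 0.291 in WT (2.13, SE 0.18, adjusted p = 1.06e-05). Pdha2 was 55.4 and 60.6% of the pair in KO and 99.8 and 99.4% in WT. Of the 12 genes of this list 6 rose and 5 fell in KO against WT. Of the kinases that switch the complex off, Pdk4, which passed the filter only through KO, was up by 2.60 (SE 0.17), Pdk1 by 2.73 (SE 0.22) and Pdk3, named after its values were seen, by 1.42 (SE 0.16), and Pdk2 was down, at -2.38 (SE 0.12). Of the 4 regulators of phosphofructokinase tested, Tigar and Pfkfb3 rose by 2.09 (SE 0.14) and 1.86 (SE 0.18), and Pfkfb4 fell by 0.89 (SE 0.13). None of these genes was called in EE_KO against WT.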
